A study of Homo sapiens with 6 samples.

Results

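The APOBEC3 genes, 7 in human (APOBEC3A, B, C, D, F, G and H), encode cytidine deaminases and are described here in PANC1 cells, a human pancreatic carcinoma line, after treatment with gemcitabine. The members were taken by name, through their Ensembl identifiers, and all 7 were found among the 20461 protein-coding genes of the deposited RNA-seq table. RNA-seq was done on cells given 50 nM gemcitabine in 2 libraries or vehicle (0.1% DMSO) in 2 libraries for 48 h, and the study calls the libraries of a condition biological replicates of this 1 cell line. DNaseI-seq, which maps open chromatin, was done on 1 vehicle and 1 gemcitabine sample at the same dose. Of the 7 members, 5 had the 10 fragments over the 4 libraries required for testing, as had 14854 of all genes, and APOBEC3A and APOBEC3G did not.

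APOBEC3 enzymes remove the amino group from cytosine in single-stranded DNA, which leaves uracil. They are known as restriction factors that mutate the DNA copies of retroviruses and retrotransposons, and APOBEC3A and APOBEC3B are also known for C-to-T and C-to-G mutations at TC sites in tumour genomes. Gemcitabine is itself a deoxycytidine analogue, and it blocks DNA synthesis. It is inactivated by cytidine deaminase, CDA, an enzyme that acts on nucleosides and is no APOBEC3 member.

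The members lie head to tail on the plus strand of chromosome 22 (hg19 positions, annotation of Gencode carried over to that build). APOBEC3A (ENSG00000128383) spans chr22:39348746-39359189 and APOBEC3B (ENSG00000179750) spans chr22:39378352-39388809. APOBEC3C (ENSG00000244509) lies at chr22:39410262-39416357 and APOBEC3D (ENSG00000243811) follows at chr22:39417118-39429282. The last of the row are APOBEC3F (ENSG00000128394) at chr22:39436609-39451977, APOBEC3G (ENSG00000239713) at chr22:39473072-39483748 and APOBEC3H (ENSG00000100298) at chr22:39493229-39500072. The Polycomb genes CBX6 (chr22:39257427-39268254) and CBX7 (chr22:39516172-39548685) flank the row. A further protein-coding model of the annotation, ENSG00000284554 at chr22:39410368-39429281, runs across APOBEC3C and APOBEC3D and is not a row of the deposited table.

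The members are recent duplicates of each other, and parts of their coding sequence are identical, which can matter for reads that must be given to 1 gene. Of the 50-base windows of the coding sequence (1 canonical transcript per gene), 35.8% in APOBEC3A, 35.3% in APOBEC3B, 27.3% in APOBEC3D, 35.3% in APOBEC3F and 11.8% in APOBEC3G occur unchanged in another member. The share is 6.14% in APOBEC3C and 0% in APOBEC3H. The longest identical coding stretch of any pair has 222 bases, in APOBEC3D and APOBEC3F. APOBEC3B shares a stretch of 172 bases with APOBEC3D and of 131 with APOBEC3F, and these are not printed. Of the pairs that share a 50-base window, APOBEC3C and APOBEC3D have the shortest stretch. They share 24 such windows, whereas APOBEC3D and APOBEC3F share 176. The longest identical stretches of the pairs discussed later are printed below from the hg19 genome. They read 5′ to 3′ on the coding strand with introns removed. The APOBEC3F and APOBEC3G stretch of 142 bases is the start of both coding sequences, in coding exons 1 to 2 of each gene (chr22:39436966-39439066 and chr22:39473367-39475061, introns included), with the start codon in capitals. The 73 bases of APOBEC3C and APOBEC3D lie in coding exon 3 of APOBEC3C (chr22:39413894-39413966) and coding exon 6 of APOBEC3D (chr22:39427822-39427894). The 196 bases of APOBEC3A and APOBEC3B lie in coding exons 2 to 3 of APOBEC3A (chr22:39355690-39357585) and 5 to 6 of APOBEC3B (chr22:39385614-39387530), again with the introns in the spans.
APOBEC3F and APOBEC3G: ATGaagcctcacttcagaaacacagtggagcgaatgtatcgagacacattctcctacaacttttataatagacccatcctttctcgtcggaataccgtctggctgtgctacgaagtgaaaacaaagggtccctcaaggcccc
APOBEC3C and APOBEC3D: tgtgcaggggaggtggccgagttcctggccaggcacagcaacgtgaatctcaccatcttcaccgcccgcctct
APOBEC3A and APOBEC3B: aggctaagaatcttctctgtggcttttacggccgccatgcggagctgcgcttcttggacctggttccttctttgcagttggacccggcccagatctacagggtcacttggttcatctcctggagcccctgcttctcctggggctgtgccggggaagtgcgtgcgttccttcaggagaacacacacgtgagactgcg

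The table gives an estimated fragment count, which need not be whole where a read fits several genes, and FPKM, the same fragments set against transcript length in kilobases and against library depth. The vehicle libraries hold 15153598 and 15766232 fragments and the gemcitabine libraries 13194535 and 13275474, so the 3 fragments up to which a gene listed at 0 could truly lie equal 0.190 to 0.227 CPM (fragments relative to the total of the library), for counting error only. Libraries of the same condition differed by more than sampling noise (mean chi-square per gene of 2.17 for vehicle and 5.16 for gemcitabine), and each was kept as its own sample. The p-values rest on 2 libraries against 2, and fewer cells of a type cannot be told apart from less RNA per cell in such bulk samples. Keratins and vimentin of the carcinoma line were abundant in all 4 libraries, with 10674 to 12432 fragments of KRT8 and 9494 to 10896 of VIM, whereas KRT19 had 45 and 45 fragments after vehicle and 94 and 88 after gemcitabine, and the adhesion molecule EPCAM had 45 to 80. Of 12 immune cell markers 3 (CD3D, CD3E and TYROBP) were at 0 throughout, and the 12 together reached 0.761 to 1.12 CPM after vehicle and 0.979 to 2.05 after gemcitabine, with 4, 2, 9 and 5 fragments of the leukocyte marker PTPRC in the 2 vehicle and 2 gemcitabine libraries.

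The APOBEC3 genes as a group were higher after gemcitabine. Summed over the family, the fragments numbered 298 and 350 in the vehicle libraries and 601 and 594 in the gemcitabine libraries, or 19.7 and 22.2 against 45.5 and 44.7 CPM. A gene was called when edgeR's quasi-likelihood test gave a Benjamini-Hochberg adjusted p under 0.05 over all genes tested, with a fold change over 1.5, a mean of at least 0.1 FPKM in 1 condition and a difference of at least 1 FPKM between the condition means. By these criteria 3 of the 7 members (APOBEC3B, C and F) were called higher and 0 lower, beside 5.69% of all genes tested called higher and 4.43% called lower. By the adjusted p alone all 5 tested members were higher, beside 18.5% of all genes tested that were higher and 20% that were lower. These background shares hold for the gene lists below as well. Their median on the log2 scale was 1.17, beside 0.0068 over all genes tested, whose 5th and 95th percentiles were -0.72 and 1.23. APOBEC3H reached the fragment minimum through its gemcitabine libraries alone, so this count and median over tested members are descriptions. APOBEC3C and APOBEC3D split joint fragment sums at nearly the same share in every library (below), so they may not be 2 separate results. Scaling by library totals in place of TMM moved the median of all genes to 0.12 and left each tested member higher.

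**Figure D1:**
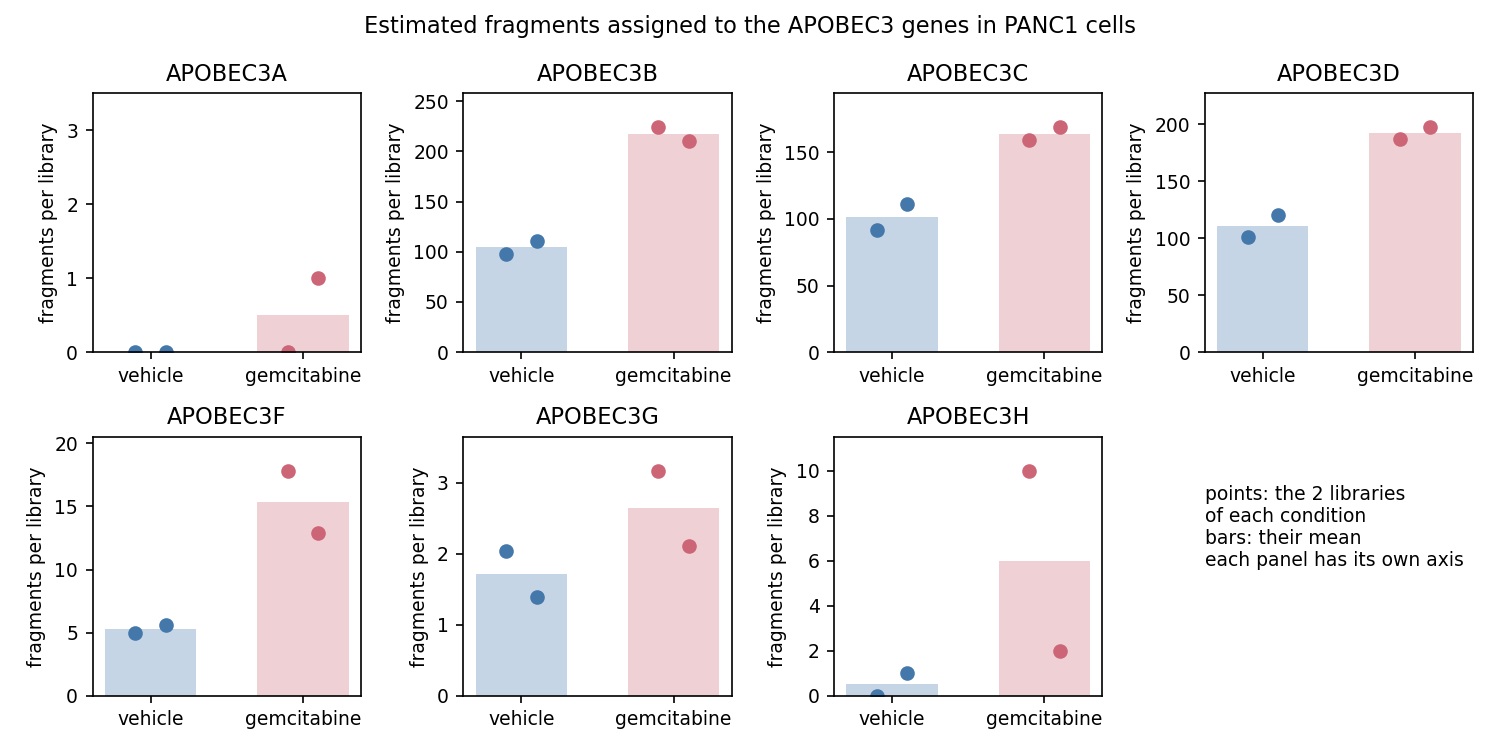
Estimated fragments per library (linear axes from 0, 1 panel per APOBEC3 gene with its own axis) for vehicle and 50 nM gemcitabine, with points for the 2 libraries of each condition and bars for their mean. APOBEC3B, C and D sit at about 92 to 120 fragments after vehicle and 159 to 224 after gemcitabine, while the other members stay under 18 fragments in every library.

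APOBEC3B, a nuclear enzyme with a pair of deaminase domains, had 98 and 111 fragments after vehicle and 224 and 210 after gemcitabine. Its FPKM was 5.34 and 5.63 in the vehicle libraries and 13.7 and 12.9 in the gemcitabine libraries. Both gemcitabine libraries lay above both vehicle libraries, an order seen in 35% of all genes tested, and the condition means were far apart beside the spread within each. The log2 fold change was 1.17 (SE 0.14, edgeR adjusted p = 1.32e-05), a 2.25-fold difference. Of all genes tested, 94.5% had a smaller log2 fold change.

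APOBEC3A, which lies just before APOBEC3B and is a single-domain enzyme found mostly in myeloid cells, had 0 and 0 fragments after vehicle and 0 and 1 after gemcitabine. It was therefore not tested, and a difference between the conditions was not detectable at this depth. The 196 bases that it shares with APOBEC3B in the sequence above could give reads that fit both genes. The fragment counts of APOBEC3B were whole numbers in all 4 libraries, as were those of APOBEC3A.

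APOBEC3C, a single-domain enzyme, had 91.7 and 111 fragments after vehicle and 159 and 169 after gemcitabine. In FPKM it stood at 6.16 and 6.70 in vehicle and 11.8 and 11.995 in gemcitabine libraries, with no overlap. Its log2 fold change was 0.81 (SE 0.15, edgeR adjusted p = 0.000781). The neighbouring APOBEC3D, a double-domain enzyme packaged into virions of HIV that lack Vif, had 101.3 and 120.1 fragments after vehicle and 187 and 197 after gemcitabine, again without overlap. Its log2 fold change was 0.91 (SE 0.14, edgeR adjusted p = 0.000170), but it was not called because its FPKM of 0.339 and 0.417 after vehicle and 0.697 and 0.746 after gemcitabine left a difference of 0.343 between the means. The fold criterion and the adjusted p were both met.

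The fragments of APOBEC3C and APOBEC3D were not whole numbers one by one, but their sums were, within 0.001. The sums were 193 and 231 after vehicle and 346 and 366 after gemcitabine. APOBEC3C held 47.53% and 48.01% of the sum in the vehicle libraries and 46.05% and 46.11% in the gemcitabine libraries, nearly the same split throughout. Tested as 1 unit, a choice made after seeing the data, the pair had a log2 fold change of 0.86 (SE 0.11, edgeR adjusted p = 3.04e-05). How the split between them was set was not tested, so the value of either gene alone is less certain than that of the pair.

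APOBEC3F and APOBEC3G, double-domain enzymes packaged into virions that lack Vif, were both at low counts. APOBEC3F had 4.96 and 5.61 fragments after vehicle and 17.8 and 12.9 after gemcitabine, and its FPKM was 0.844 and 0.536 against 2.92 and 2.23. The conditions did not overlap, and the log2 fold change of 1.59 (SE 0.51) passed with an edgeR adjusted p of 0.0226, so the gene was called higher. The call was lost without vehicle library 1 (adjusted p = 0.111 by edgeR), without vehicle library 2 (adjusted p = 0.0898) and without gemcitabine library 1 (adjusted p = 0.114), and also with DESeq2 (adjusted p = 0.175, over a range of 0.0130 to 0.175 across all settings tried). APOBEC3G had 2.04 and 1.39 fragments after vehicle and 3.17 and 2.11 after gemcitabine, too few for a test.

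The fragments of APOBEC3F and APOBEC3G also summed to whole numbers, 7 and 7 after vehicle and 21 and 15 after gemcitabine, of which APOBEC3F held 70.8% to 85.9%. As 1 unit, again a choice made after seeing the data, the pair had a log2 fold change of 1.46 (SE 0.47, edgeR adjusted p = 0.0233). The gemcitabine libraries lay above the vehicle libraries.

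APOBEC3H, a single-domain enzyme of the last position in the row, had 0 and 1 fragments after vehicle and 10 and 2 after gemcitabine. Most of its fragments were in gemcitabine library 1. Per total fragments the ratio of gemcitabine to vehicle was 14.0, with an exact 95% interval from 2.07 to 599 that covers counting error only. The fitted log2 fold change was 3.39 (SE 1.20, edgeR adjusted p = 0.0365), a value that depends on the prior count. With 1 fragment after vehicle, APOBEC3H met the minimum of 10 fragments through its gemcitabine libraries alone. This adjusted p is therefore a description and no support for a rise. APOBEC3H was not called, since its FPKM of 0 and 0.0564 after vehicle and 1.52 and 0.172 after gemcitabine left a difference of 0.820. Without vehicle library 1 its adjusted p was 0.204 and without vehicle library 2 it was 0.0977 by edgeR, within a range of 0.00163 to 0.514 across all settings, and without gemcitabine library 1 it had too few fragments to be tested.

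**Figure D2:**
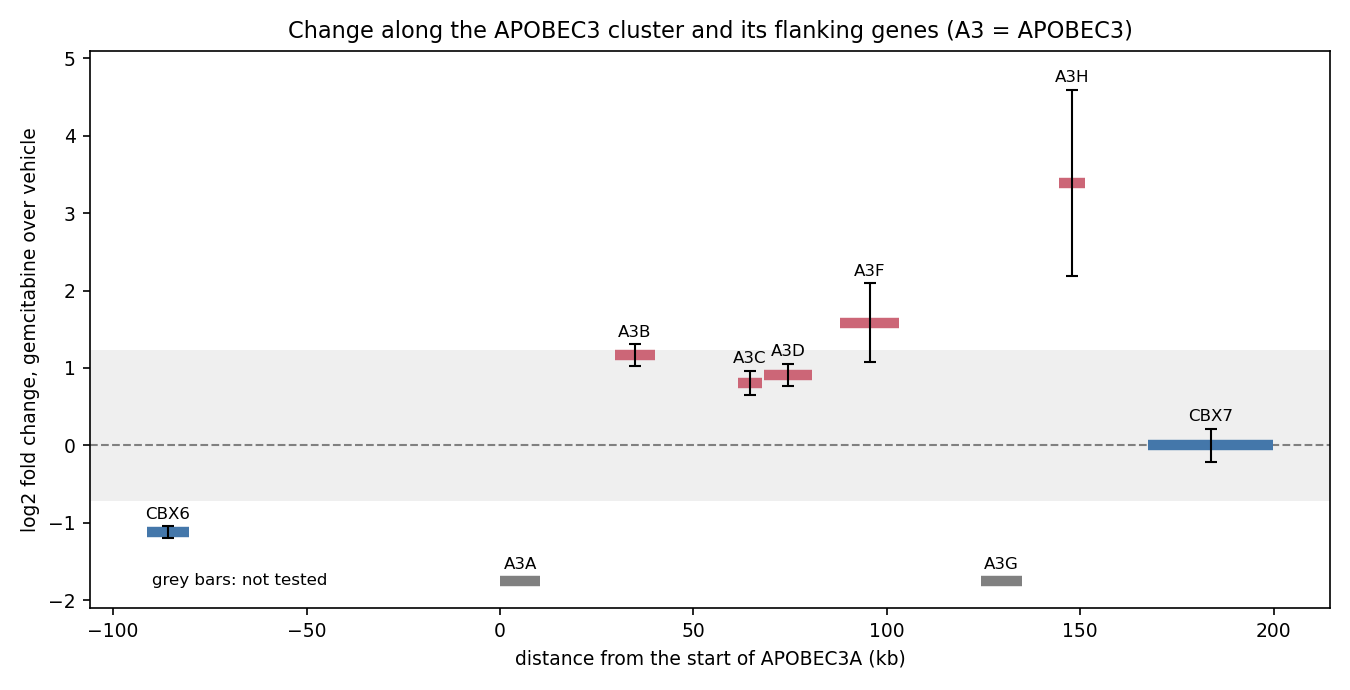
Log2 fold change of gemcitabine over vehicle (edgeR, error bars of 1 SE) along the APOBEC3 row, against the distance in kb from the start of APOBEC3A, with bars as long as the genes, labels that shorten APOBEC3 to its first letter and number, and a grey band from the 5th to the 95th percentile of all genes tested (-0.72 to 1.23). The 5 tested members (red) lie between 0.81 and 3.39, the flanking CBX6 and CBX7 (blue) at -1.12 and -0.0012, and the 2 members not tested are drawn as grey bars with no value.

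The levels of the members were ordered by FPKM, which is per length. The places of APOBEC3C and APOBEC3D rest on the split of their joint fragments, which was not tested. After vehicle, APOBEC3C led with 6.43 ± 0.39 FPKM (SD, n = 2), followed by APOBEC3B with 5.48 ± 0.21, APOBEC3F with 0.690 ± 0.22 and APOBEC3D with 0.378 ± 0.056, and neighbours in this order did not overlap between libraries. After gemcitabine APOBEC3B led with 13.3 ± 0.57 FPKM, followed by APOBEC3C with 11.9 ± 0.16 and APOBEC3F with 2.58 ± 0.49. APOBEC3H with 0.849 ± 0.96 and APOBEC3D with 0.721 ± 0.035 came next and overlapped. APOBEC3G stood at 0.00223 and 0.00397 FPKM and APOBEC3A at 0 and 0.00338 in the condition means. APOBEC3B made up 42.1% and 42.2% of the summed FPKM of the family in the vehicle libraries and 44.7% and 45.9% in the gemcitabine libraries, whereas APOBEC3C made up 48.6% and 50.2% and then 38.5% and 42.8%.

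Within a library, the fragments of APOBEC3B divided by those of the APOBEC3C and APOBEC3D pair gave 0.508 and 0.481 after vehicle and 0.647 and 0.574 after gemcitabine. The gemcitabine ratios were both above the vehicle ratios. The fragments of the APOBEC3F and APOBEC3G pair over those of APOBEC3B gave 0.0714 and 0.0631 after vehicle and 0.0937 and 0.0714 after gemcitabine, where 1 library of each condition had nearly the same ratio. These ratios are given as values, since an exact permutation test of 2 libraries against 2 cannot go below p = 0.333.

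The length implied by the deposited fragments and FPKM differed widely between the members. It is CPM divided by FPKM, and it need not be a length that Cuffdiff used. Its median over libraries was 1.24 kb for APOBEC3B, 1.04 kb for APOBEC3C and 0.874 kb for APOBEC3H. For APOBEC3D it was 19.8 kb and for APOBEC3G 50.2 kb, above the longest annotated transcripts of 2.515 and 2.775 kb and above the genomic spans of 12.2 and 10.7 kb. APOBEC3A, from its 1 fragment in 1 library, came to 11.1 kb, also above its longest transcript of 1.478 kb and its span of 10.4 kb. For APOBEC3F it was 0.449 kb, under its longest transcript of 4.496 kb. Over 12695 genes with at least 10 fragments in each library the median was 2.03 kb, and 2.99% had more than 10 kb. The cause of these lengths was not tested.

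**Figure D3:**
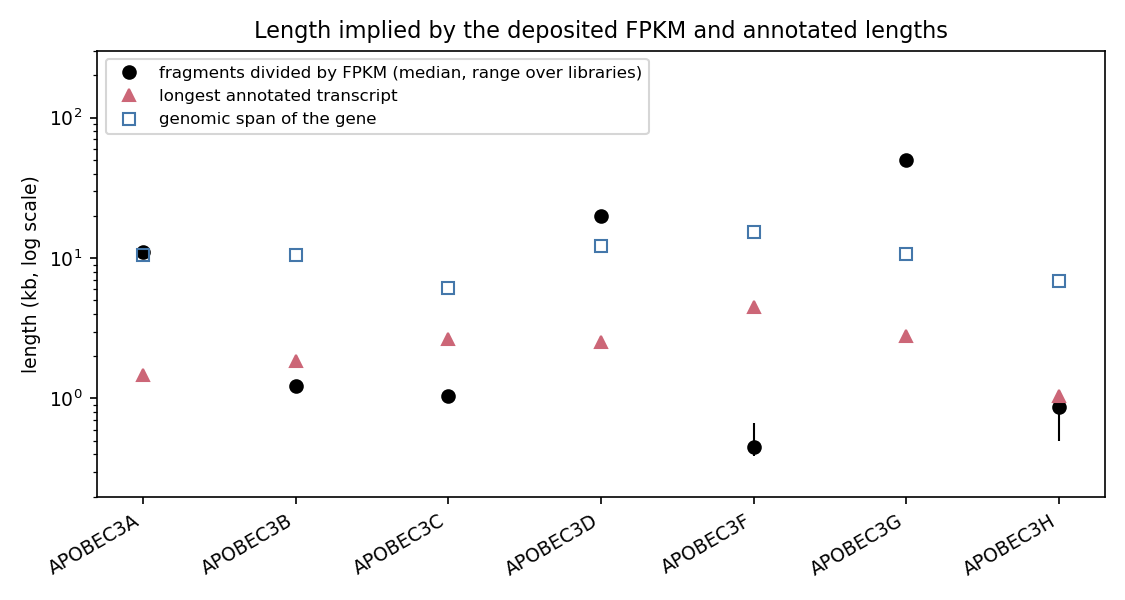
Length in kb (log axis) implied for each APOBEC3 gene by CPM divided by FPKM (black points, median with the range over libraries that have fragments), beside the longest annotated transcript (red triangles) and the genomic span (blue squares). APOBEC3D at 19.8 kb, APOBEC3G at 50.2 kb and APOBEC3A at 11.1 kb (1 library) lie above their genomic spans, and APOBEC3F at 0.449 kb lies below its longest transcript.

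The length used decides which members meet the criterion on the FPKM difference. CPM was also divided by the length of the canonical annotated transcript, an alternative chosen after seeing the data. On that scale APOBEC3B had means of 4.25 after vehicle and 10.3 after gemcitabine per kb, APOBEC3D 2.84 and 5.77, APOBEC3C 2.47 and 4.69 and APOBEC3F 0.0759 and 0.258. APOBEC3B thus led in both conditions and APOBEC3D stood above APOBEC3C. With these values in the criteria 3 members were still called higher, but they were APOBEC3B, APOBEC3C and APOBEC3D, and APOBEC3F was not among them. The order on this scale and the separate calls of APOBEC3C and APOBEC3D rest on the split of the pair's fragments. How that split was set was not tested.

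The genes whose pattern over the 4 libraries was most like that of APOBEC3B were found by the distance between centred log2 values (TMM-scaled CPM, 12843 genes averaging 1 CPM or more). They were CRYBG1 at a distance of 0.0402, LETM2 at 0.0468, TP53INP2 at 0.0644, the diacylglycerol kinase DGKA at 0.0653 and PLCXD2 at 0.0690. TP53INP2 had 346 and 408 fragments after vehicle and 821 and 781 after gemcitabine. APOBEC3D came at a distance of 0.282, with 176 genes closer to APOBEC3B, and APOBEC3C at 0.382, with 326 genes closer. The 4 libraries are few points for such a likeness, and it is given as a description.

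APOBEC genes outside the APOBEC3 row were at or near 0. APOBEC2 had 0 and 4 fragments after vehicle and 1 and 0 after gemcitabine, and APOBEC1, which edits apolipoprotein B mRNA, and APOBEC4 had 0 in every library. Among 13 other deaminases listed, 12 had the fragments required for testing. Of 12 tested deaminases of nucleosides, adenosine in RNA and tRNA, 2 were called higher and 1 lower, and their median was -0.11 on the log2 scale. CDA, which inactivates gemcitabine, had 257 and 261 fragments after vehicle and 443 and 437 after gemcitabine, a log2 fold change of 0.88 (SE 0.096, edgeR adjusted p = 7.10e-06). The AMP deaminase AMPD3 was also called higher at 0.71 and the RNA editing enzyme ADARB1 lower at -0.98. ADAR had -0.10 and the dCMP deaminase DCTD -0.12, and neither passed the test.

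Uracil left in DNA by a deaminase is removed by base excision repair. Of 17 tested genes of uracil and abasic site repair 0 were called higher and 3 lower, 2 passed the adjusted p upward and 6 downward (18.5% and 20% of all genes tested), and the median was -0.14 on the log2 scale. UNG, the main uracil DNA glycosylase, had 1967 and 1997 fragments after vehicle and 589 and 665 in the drug-treated libraries. The log2 fold change was -1.55 (SE 0.078, edgeR adjusted p = 1.57e-08), a fall beside the rise of the 3 called APOBEC3 members. The ligase LIG3 fell by 0.95 on the log2 scale and the abasic site endonuclease APEX1 fell by 0.60. SMUG1, another uracil glycosylase, passed the adjusted p at 0.29 but not the fold criterion.

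**Figure D4:**
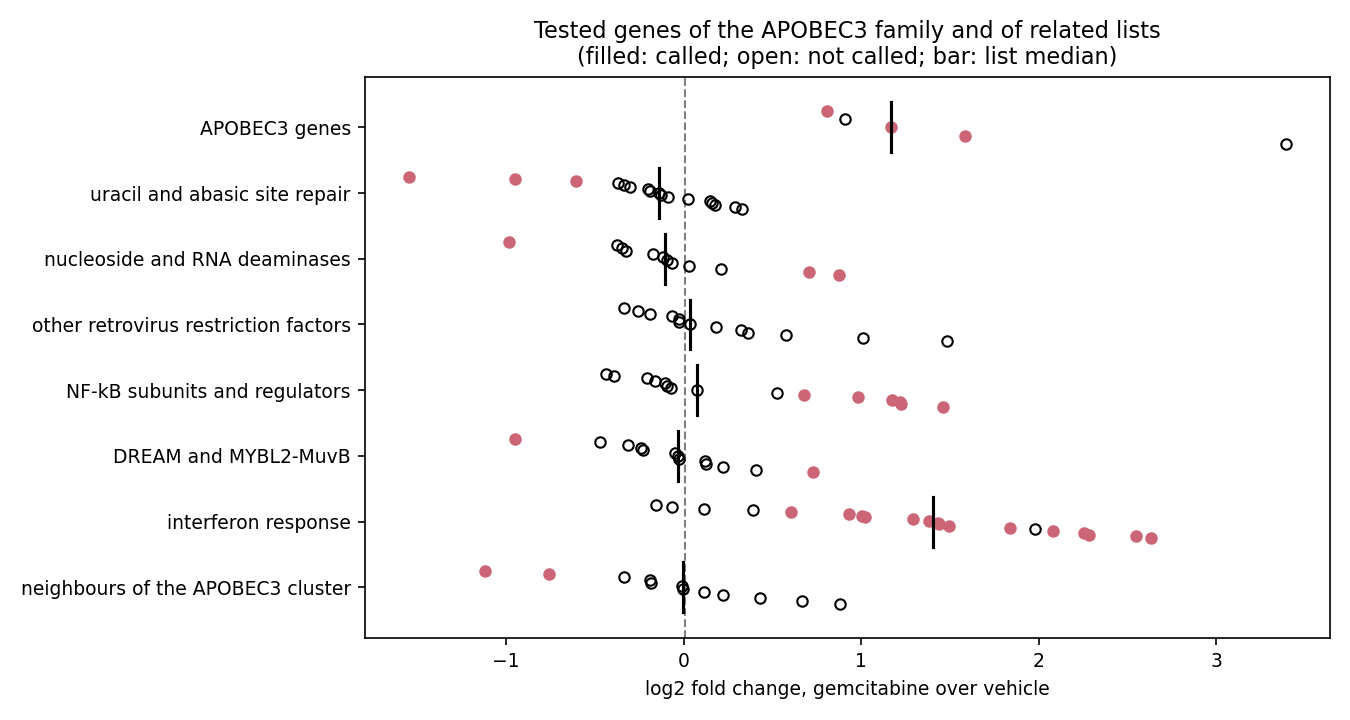
Log2 fold change of gemcitabine over vehicle (edgeR) for the tested genes of the APOBEC3 family and of 7 related lists, with filled points for genes called, open points for genes not called and a vertical bar at the median of each list. The interferon response list has the highest median of the 7 at 1.41, beside 1.17 for the APOBEC3 genes, and the other 6 medians lie between -0.14 and 0.074.

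Several APOBEC3 genes are known to respond to interferon, and APOBEC3B is known to respond to NF-kB signalling and to be held down by the DREAM complex. Of 20 tested interferon response genes 15 were called higher and 0 lower, and their median was 1.41 on the log2 scale. The 4 largest changes among called genes were in OASL, an oligoadenylate synthetase relative, at 2.63, in IFIT2 and IFIT3, which act on viral RNA, at 2.55 and 2.28, and in OAS1 at 2.26. OASL had 12 and 15 fragments after vehicle and 82 and 74 after gemcitabine. OAS1 was at low counts, with 2 and 3 fragments after vehicle and 14 and 9 after gemcitabine. Among the genes that did not pass the test were MX1, IFI44L and IFIH1, with values from -0.16 to 0.39, and OAS2, at 1.98 with 0 to 4 fragments in a library.

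Of 15 tested NF-kB subunits and regulators 6 were called higher and 0 lower, with 7 past the adjusted p upward and 3 downward and a median of 0.074. The downward count is at the background share of 20%. RELB, a subunit of the non-canonical branch, had 165 and 133 fragments after vehicle and 382 and 376 after gemcitabine, a log2 fold change of 1.46 (SE 0.13, edgeR adjusted p = 9.26e-07). NFKB2, its partner, rose by 0.98, and the feedback genes BIRC3, TNFAIP3 and NFKBIE rose by 1.22, 1.22 and 1.17. Of 13 tested genes of the DREAM and MYBL2-MuvB complexes 1 (LIN37, at 0.73) was called higher and 1 (E2F5, at -0.95) lower. The median was -0.032. Past the adjusted p were 3 upward and 5 downward, beside 18.5% and 20% of all genes tested. MYBL2, 1 of those upward, was at 0.22 and did not meet the fold criterion. Of 13 tested restriction factors other than APOBEC3 genes 0 were called in either direction, beside 5.69% of all genes tested called higher and 4.43% lower, and 5 passed the adjusted p upward and 3 downward, beside 18.5% and 20% of all genes tested. SAMHD1, which lowers the dNTP pool, had 708 and 800 fragments after vehicle and 912 and 876 after gemcitabine, a log2 fold change of 0.36.

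Of the 12 tested neighbours on chromosome 22 outside the row 0 were called higher and 2 lower, with a median of -0.0050. CBX6, the flank before APOBEC3A, had 1140 and 1199 fragments in vehicle and 486 and 507 in gemcitabine libraries, a log2 fold change of -1.12 (SE 0.076, edgeR adjusted p = 1.38e-07). SUN2, of the nuclear envelope, fell by 0.76 on the log2 scale. CBX7, the flank after APOBEC3H, had 66 and 77 fragments against 74 and 58 and a log2 fold change of -0.0012. From CBX6 to CBX7, the genes called were APOBEC3B, C and F upward and CBX6 downward.

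DNaseI-seq gave no peak at the members. Within 5 kb of an annotated start of any of the 7 genes there were 0 of the 9606 vehicle peaks and 0 of the 10695 gemcitabine peaks, and the same held within 1 kb. Among the 2907 genes whose mean FPKM over the 4 RNA-seq libraries was between 5 and 15, which takes in APOBEC3B and APOBEC3C, 32.3% (Wilson 95% interval 30.7 to 34.1) had a vehicle peak within 5 kb and 40.0% (38.2 to 41.8) a gemcitabine peak. An absent peak at a single member is therefore the more common case in these lists, and it does not show closed chromatin. With 1 DNaseI library per condition there is no replicate check. The study also added ENCODE peaks of PANC1 to its set of open regions, and those were not used here.

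The single peak between CBX6 and CBX7 was in the gemcitabine list, at chr22:39320325-39321100 (hg19), 27.6 kb before the start of APOBEC3A. Its score was 93.91 and it ranked 3116 of 10695 peaks. The nearest vehicle peak was 246 kb from APOBEC3A. The central 300 bases of the gemcitabine peak, at chr22:39320563-39320862 on the plus strand of hg19, are printed because it is the peak of these lists nearest to the row. The capitals mark a match to TTTGAA, the letters of the cell cycle homology element that the DREAM complex is known to bind.
Peak before APOBEC3A: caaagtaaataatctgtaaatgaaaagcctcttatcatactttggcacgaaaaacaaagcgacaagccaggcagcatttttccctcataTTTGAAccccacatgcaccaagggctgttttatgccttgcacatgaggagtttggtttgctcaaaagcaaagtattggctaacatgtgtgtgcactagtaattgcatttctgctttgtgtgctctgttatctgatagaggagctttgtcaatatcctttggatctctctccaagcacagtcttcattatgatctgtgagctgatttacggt

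A promoter sequence from RefSeq (GRCh38.p14) was at hand for 1 of the 7 members, APOBEC3H. Its 250 bases before the start, at chr22:39096994-39097243 of GRCh38.p14 on the plus strand, are printed because this member had the highest fitted fold change. The search on both strands was for the interferon-stimulated response element (GAAA, any 2 bases, GAAA), for a kB-like motif (GGGA, any 4 bases, CC) and for TTTGAA. Of 35116 promoters of the same 250 bases, 3.02%, 22.6% and 13.3% hold these motifs. The kB-like motif was found once in the APOBEC3H promoter, on the minus strand, and its letters as read on the plus strand are in capitals, while the other motifs were not in this window. In the whole peak before APOBEC3A the search gave TTTGAA alone, once. That peak is 776 bases long, so the shares of 250-base promoters are no background for it. These matches are descriptions of letters, and binding was not measured.
APOBEC3H promoter: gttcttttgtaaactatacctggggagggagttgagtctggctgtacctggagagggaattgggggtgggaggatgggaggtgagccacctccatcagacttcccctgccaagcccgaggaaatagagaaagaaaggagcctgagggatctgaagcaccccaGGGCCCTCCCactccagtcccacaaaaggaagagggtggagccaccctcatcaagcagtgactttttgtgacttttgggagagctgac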

How the data were processed

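RNA-seq covered 2 vehicle and 2 gemcitabine (50 nM, 48 h) libraries of PANC1 cells, and DNaseI-seq 1 library of each. Single-end reads were mapped by the authors with TopHat2 (version 2.0.8, hg19), and the authors then ran Cuffdiff (version 2.0.2) with the protein-coding genes of Gencode. The deposited table holds estimated counts (fragments) and FPKM per gene and library. Its 2 further scaled columns were not used. The authors called DNaseI peaks with MACS, and the deposited lists give a position and a score for each peak.

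The table's index for the libraries of a condition has no link to the labels' replicate numbers, so library numbers are only names. Identifiers matched current symbols for 19619 of 20461 genes. Estimated counts were rounded, and every gene with 10 or more fragments in the 4 libraries together entered the quasi-likelihood test of edgeR 4.0.16 (R 4.3.3, TMM, Benjamini-Hochberg over all genes tested, no covariate), in place of Cuffdiff's test. The fit was checked on simulated counts. The SE given with an edgeR log2 fold change was worked back from the test. It is the absolute log2 fold change divided by the square root of the F statistic. Both criteria on FPKM follow the study.

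The members and gene lists were chosen with earlier results of these data known, so lists are described by counts and medians. The genes named are all members, from each list up to 4 called genes with the largest change plus UNG, SMUG1, CDA, DCTD, NFKB2, RELB, MYBL2, SAMHD1 and ADAR, and the 5 genes most like APOBEC3B. Others (the markers, the interferon genes that did not pass, APOBEC1, APOBEC2, APOBEC4 and CBX7) were named after their values were seen. Most other list genes enter the counts and medians only, and some are not reported here. Annotation lengths, starts and coding sequences came from Gencode on hg19, later than the version the authors used. The shares of genes with a DNaseI peak carry Wilson intervals, for counting error only (scipy 1.17.1).

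Alternatives were DESeq2 1.42.0, RLE size factors, library totals, no filter or edgeR's filter on low counts, limma 3.58.1 on log2(FPKM + 0.1) and on log2(FPKM + 1), the latter also unfiltered, other adjusted p rules, genes with a failed Cuffdiff status left out, each library left out, and 2 chosen after seeing the data (pair sums and annotated transcript length).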

Additional observations from a re-analysis of the deposited data

How the results depend on the processing

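Under every alternative that tested them the 5 members stayed higher. The log2 fold changes were 1.12 to 1.28 for APOBEC3B, 0.72 to 0.92 for APOBEC3C and 0.32 to 1.02 for APOBEC3D. They were 1.08 to 1.79 for APOBEC3F and 0.74 to 5.64 for APOBEC3H. APOBEC3H passed the filters on low level through its gemcitabine libraries alone, so its direction there is a description. The adjusted p ranged from 4.30e-12 to 0.0687 for APOBEC3B, 7.71e-06 to 0.0811 for APOBEC3C, 6.65e-08 to 0.165 for APOBEC3D, 0.0130 to 0.175 for APOBEC3F and 0.00163 to 0.514 for APOBEC3H. DESeq2 gave APOBEC3F 1.61 (adjusted p = 0.175) and no adjusted p for APOBEC3H, which without a filter on low counts had 3.40 (edgeR adjusted p = 0.103). With limma, log2(FPKM + 1) gave 0.32 (adjusted p = 0.129) for APOBEC3D and 0.74 (0.220) for APOBEC3H, and log2(FPKM + 0.1) gave 0.78 (0.165) and 2.41 (0.134). With limma on log2(FPKM + 1) and no filter, 0 members were called (4 at an unadjusted p under 0.05), with 1.14 (adjusted p = 0.0687) for APOBEC3B, 0.79 (0.0811) for APOBEC3C, 0.32 (0.0944) for APOBEC3D, 1.08 (0.115) for APOBEC3F and 0.74 (0.514) for APOBEC3H. That setting called 28 genes higher and 17 lower, and 1 and 0 genes of the 8 pathway lists, in place of 24 and 7. The cause was not tested.

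Over all genes, 845 were called higher and 658 lower. Library totals gave 1164 and 417, limma on log2(FPKM + 1) 847 and 311 and on log2(FPKM + 0.1) 878 and 335. The adjusted p alone called 5 members higher, 2750 genes higher and 2975 lower, and 24 genes of the pathway lists lower. By fragments in place of FPKM, APOBEC3B held 32.3% of the family after vehicle and 36.3% after gemcitabine in place of 42.1% and 45.3%, APOBEC3C 31.2% and 27.5% in place of 49.4% and 40.6%, and APOBEC3D 34.1% and 32.1% in place of 2.90% and 2.47%.

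With 1 library left out, where the lone library is assumed to vary like the others, APOBEC3F ranged from 1.35 to 1.79 and APOBEC3H from 2.59 to 5.64, the members called from 2 to 4, the genes called higher from 674 to 923 and lower from 594 to 771. No DNaseI peak lay near a start in either list under any setting, so the rule for shared peaks gave no value. No paired analysis was possible because the table's library index has no link to the labels' replicate numbers. Depth limits APOBEC3A, F, G and H, which had at most 18 fragments in a library.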
